A study of Mus musculus with 2 samples.

Results

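The colony-stimulating factors and their receptors were followed across the cell types of imiquimod-treated mouse skin. The group held 10 genes, chosen by symbol, of the 31053 genes counted: the ligands *Csf1*, *Il34*, *Csf2*, *Csf3* and *Flt3l*, and the receptor genes *Csf1r*, *Csf2ra*, *Csf2rb*, *Csf3r* and *Flt3*. All 10 were detected in both libraries. The samples were 1 dermal and 1 epidermal single-cell library from wild type C57BL/6 mice, 10 weeks old by their labels, whose ear skin had received imiquimod for 5 days. Imiquimod is a Toll-like receptor agonist that gives psoriasis-like skin inflammation. All cells came from treated skin, with no untreated library among the samples, so every comparison was between cell types or between the skin layers. The methods of the study load CD45+ live cells from the dermis and all live cells from the epidermis, and give another age for the mice, while the labels name only the removal of dead cells. Whether this dermal library was sorted for CD45 was therefore not settled. How many mice went into a library is not given in the sources used here.

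Colony-stimulating factors are secreted or membrane-bound cytokines that keep myeloid cells alive and drive their growth and maturation. CSF-1 (gene *Csf1*) and IL-34 are separate ligands of one tyrosine kinase receptor, CSF1R, the survival receptor of macrophages and Langerhans cells, and IL-34 is known in skin as a keratinocyte product on which Langerhans cells depend. GM-CSF (*Csf2*) binds an alpha chain (*Csf2ra*) paired with the beta common chain (*Csf2rb*), which also serves IL-3 and IL-5. G-CSF (*Csf3*) acts through CSF3R on the neutrophil lineage, and FLT3 ligand (*Flt3l*) acts through FLT3 on dendritic cells and their precursors.

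After cells under 200 genes or over 10% mitochondrial transcripts were left out, 4747 dermal cells (median 7010 UMIs, the molecular barcodes that count transcripts) and 4173 epidermal cells (median 25918 UMIs) remained. Cells were assigned to types by marker genes, none of them members of the group. Each type is marker-like and is named without that word below. Types of at least 20 cells numbered 15 in the dermis and 7 in the epidermis, while 19.3% and 10.6% of cells stayed unassigned. The dermal library also held 359 fibroblasts, 32 endothelial cells and 26 Schwann cells by their markers. The type 17 T cell gate rested on genes that include *Il17a*, *Blk* and *Trdc*, the constant segment of the delta chain. Although *Trdc* was a marker of that gate, it had a UMI in 70.5% of its 88 dermal cells, so those cells are called type 17 T cells, not γδT cells. It was also a marker of the epidermal γδT gate, with a UMI in 99.05% of those cells. The dermal mast cells were shallow, at a median of 849 UMIs. The libraries shared 30 of the kept barcodes. Levels are CPM, the UMIs of a gene per 1000000 UMIs of a type, with exact 95% Poisson intervals in parentheses, which cover counting error only. Where a type had 0 UMIs of a gene, the limit given is 3 UMIs on the same scale. With 1 library per layer no test was made.

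**Figure D1:**
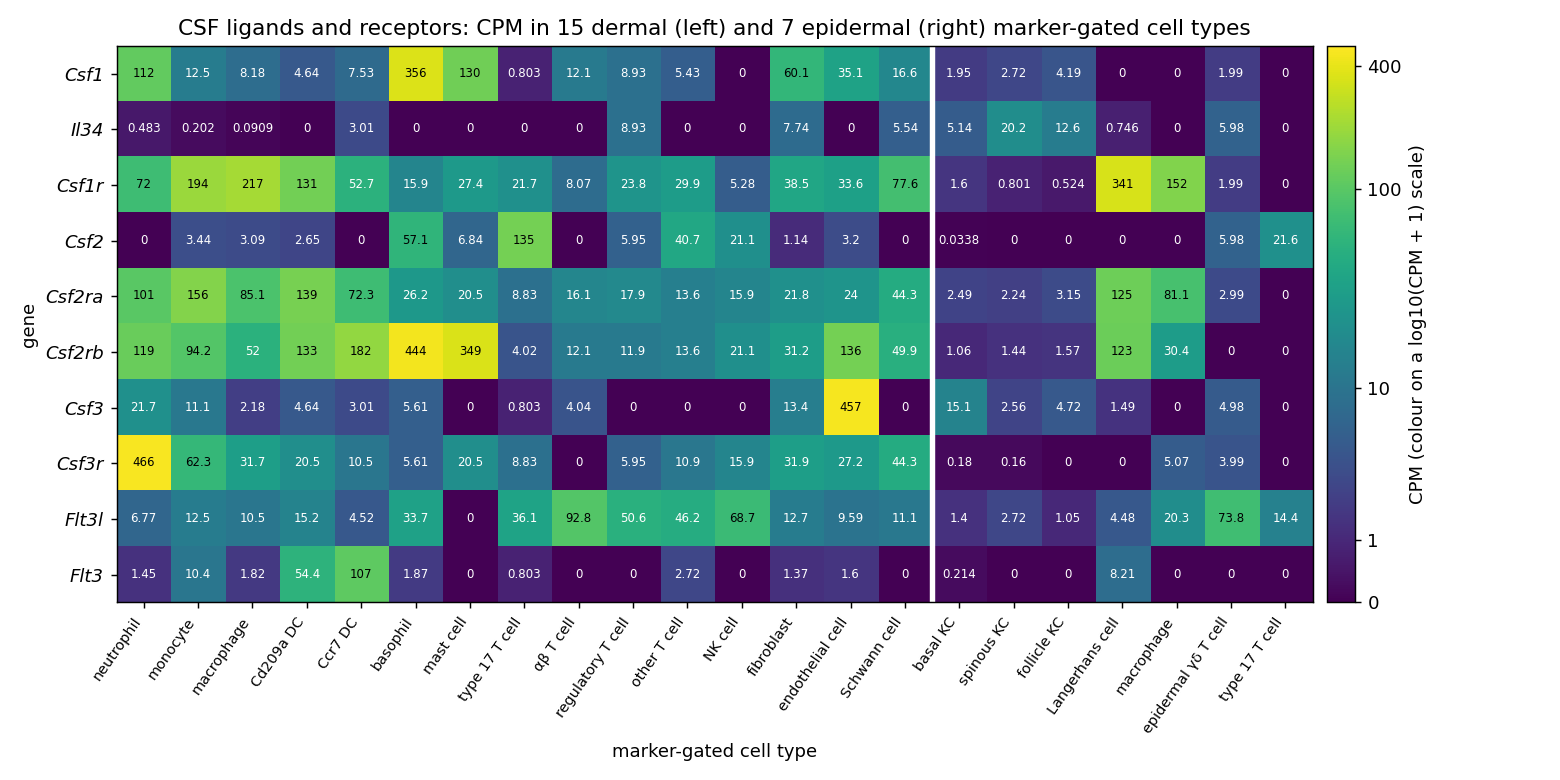
CPM of the 10 genes (rows) in the 15 dermal types (left of the white line) and 7 epidermal types (right) of at least 20 cells, with colour on a log10(CPM + 1) scale and each value printed in its cell. *Csf3r* is brightest in neutrophils (466), *Csf3* in dermal endothelial cells (457), *Csf2rb* in basophils (444), *Csf1* in basophils (356) and *Csf1r* in Langerhans cells (341).

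In each library most of these genes had no single type far above the next. A gene was said to have a leading type where its CPM there was at least 3-fold above that of the next type, among genes with at least 50 UMIs. In the dermis this held for 2 of the 9 members measured, *Csf3* in endothelial cells and *Csf3r* in neutrophils, against 9.07% of all 11382 genes. In the epidermis it held for 3 of 7 members, against 10.7% of 11961 genes. These were *Csf2rb* in Langerhans cells (4.05-fold, 1.82 to 11.2), *Flt3l* in epidermal γδT cells (3.64-fold, 1.36 to 13.7) and *Csf3* in basal keratinocytes (3.03-fold, 1.30 to 9.35). All of these intervals reach below 3-fold. Types under 20 cells, left out here, stood higher for *Csf2rb*, with basophils at 483 CPM, *Ccr7* dendritic cells at 385 and *Cd209a* dendritic cells at 302. Small types were also higher for *Flt3l* (αβT cells at 92.5, 3 UMIs) and *Csf3* (melanocytes at 25.8, 2 UMIs, and *Cd209a* dendritic cells at 18.9, 1 UMI). The *Csf3* fold in basal keratinocytes lay just past the 3-fold threshold. That fold fell short of it under the study's limits on cells (1.15-fold) and under a stricter marker gate (2.89-fold). At 2-fold the counts were 4 of 9 against 17.9% of all genes in the dermis, with *Csf1* and *Csf2* added, and 4 of 7 against 22.1% in the epidermis, with *Csf1r* added. Counts this small are a description of the members.

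*Csf1* (chr3:107741048-107760469, minus strand, GRCm38) was highest in basophils, ahead of the stromal cells. Dermal basophils stood at 356 CPM (322 to 394), from 381 UMIs in 161 of 227 cells, and held 28.7% of all *Csf1* UMIs of the library. Mast cells followed at 130 (78.2 to 203, 19 UMIs), neutrophils at 112 (98.2 to 128), fibroblasts at 60.1 (53.0 to 67.8) and endothelial cells at 35.1 (22.0 to 53.2). Basophils were above mast cells by 2.74-fold (1.73 to 4.61) and above fibroblasts by 5.93-fold (5.06 to 6.97). Mast cells and neutrophils were not separated (ratio 1.16, 0.685 to 1.85). The cells that carry its receptor were low in the ligand, with 12.5 CPM in monocytes and 8.18 in macrophages. A *Csf1* UMI was found in 1.14% of type 17 T cells, which are deeper (median 12027 UMIs) than basophils (median 4393 UMIs, 70.9% with a UMI). Mast cells also held basophil markers at 26.9% of the basophil level, against 0.374% in neutrophils and 0.353% in fibroblasts. The part of those transcripts in the mast cell value was not tested. Marker shares in another type are low by construction, since a gate leaves out cells rich in markers of another type. The 19 epidermal basophils stood at 224 CPM (119 to 383, 13 UMIs), which the counts did not separate from the dermal ones (ratio 1.59, 0.919 to 3.02).

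Keratinocytes held little *Csf1* and carried the other ligand. *Csf1* was at 1.95 CPM (1.67 to 2.26) in basal, 2.72 (1.59 to 4.36) in spinous and 4.19 (1.81 to 8.26) in upper follicle keratinocytes, 30.8-fold (25.3 to 37.5) lower in basal keratinocytes than in dermal fibroblasts. Langerhans cells had 0 *Csf1* UMIs, which allows up to 2.24 CPM. *Il34* (chr8:110741829-110805924, minus strand) was at 20.2 CPM (16.8 to 24.0) in spinous keratinocytes, the suprabasal cells, at 12.6 (8.06 to 18.7) in upper follicle and at 5.14 (4.68 to 5.63) in basal keratinocytes. The spinous level was 3.93-fold (3.20 to 4.80) above the basal one and 1.60-fold (1.03 to 2.60) above the upper follicle one. Under the study's limits on cells, spinous keratinocytes exceeded the next type by only 1.01-fold. Basal cells, being the most numerous, still held 70.0% of the *Il34* UMIs of the epidermal library and spinous cells 19.4%. A UMI was found in 30.6% of spinous and 14.8% of basal cells, or 1.77% and 0.571% once each cell was thinned to 1000 UMIs, against 0.629% of Langerhans cells (0.101% thinned). Epidermal γδT cells stood at 5.98 CPM (2.19 to 13.0) from 6 UMIs, and these cells also held spinous keratinocyte markers at 5.95% and basal markers at 23.5% of the keratinocyte level. The part of keratinocyte RNA in that value was not tested.

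In the dermis *Il34* was sparse and stromal. Fibroblasts held 34 of its 50 UMIs, at 7.74 CPM (5.36 to 10.8), below the spinous keratinocytes by a ratio of 0.383 (0.254 to 0.563). Dermal macrophages had 1 UMI, which put fibroblasts 85.1-fold higher with a wide counting interval (14.3 to 3460). The regulatory T cells, first by CPM at 8.93, rested on 3 UMIs in 1 cell.

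**Figure D2:**
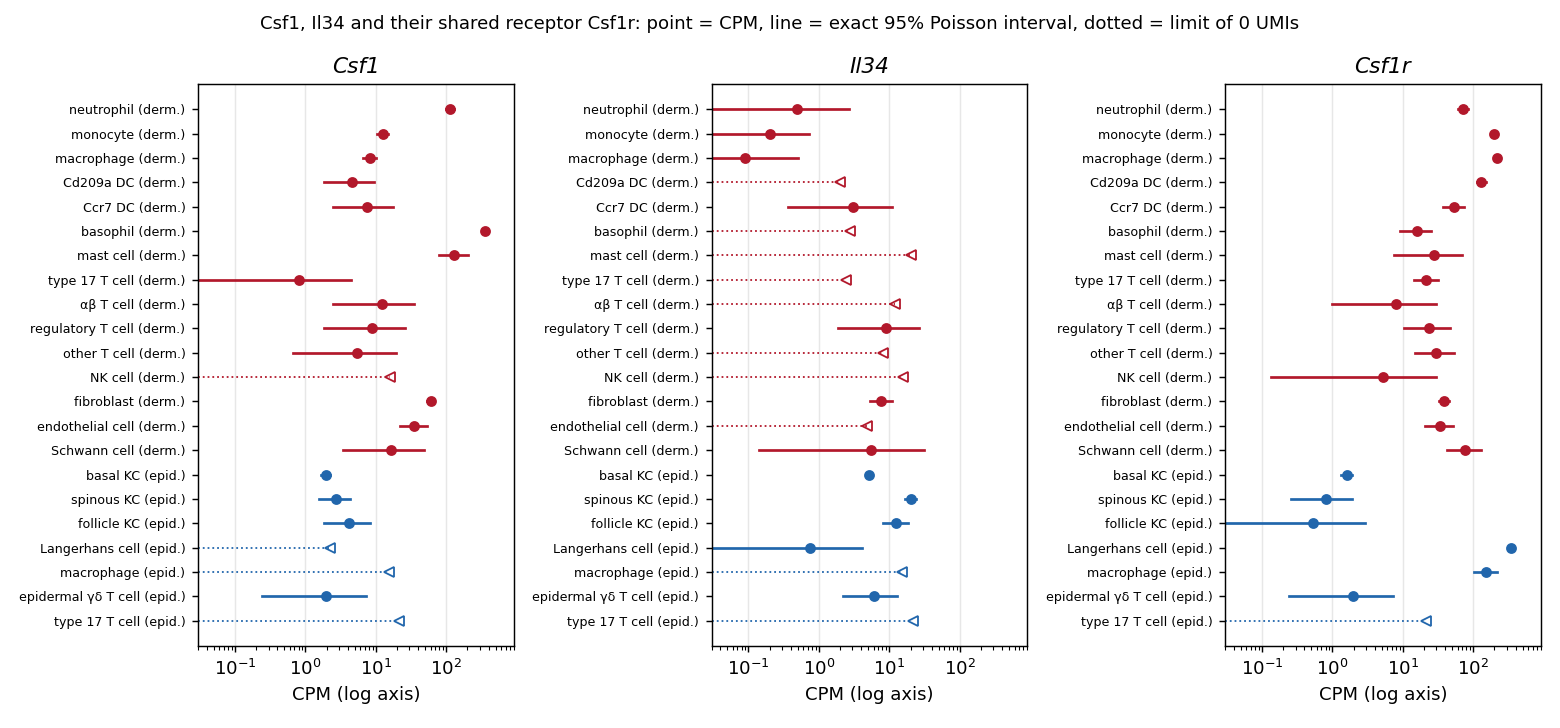
CPM (log axis) of *Csf1*, *Il34* and *Csf1r* in dermal (red) and epidermal (blue) types, with points at the value, lines for the exact 95% Poisson interval and open triangles for the limit that 0 UMIs allow. *Csf1* peaks in dermal basophils, *Il34* in spinous keratinocytes (20.2) and *Csf1r* in Langerhans cells (341), macrophages (217) and monocytes (194).

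*Csf1r* (chr18:61100598-61132149, plus strand), their common receptor, was highest in mononuclear phagocytes. Langerhans cells were highest at 341 CPM (310 to 374), with a UMI in 83.0% of 159 cells, and stood 1.57-fold (1.42 to 1.74) above dermal macrophages, across libraries of unlike depth. Dermal macrophages were at 217 (208 to 226) and monocytes at 194 (186 to 203), a ratio of 1.11 (1.05 to 1.18). Dendritic cells marked by *Cd209a* were at 131 (113 to 150), those marked by *Ccr7*, a migratory state, at 52.7 (36.7 to 73.3), and the 33 epidermal macrophages at 152 (103 to 217). Neutrophils were at 72.0 (60.9 to 84.5), 2.70-fold (2.28 to 3.21) below monocytes. Type 17 T cells, which should lack the receptor, had a UMI in 20.5% of cells against 75.3% of the shallower macrophages, and 21.7 CPM, or 10.0% of the macrophage level. Fibroblasts reached 17.8% of that level, while the macrophage gate markers summed to 4.29% of it in fibroblasts, 5.67% in neutrophils and 3.13% in type 17 T cells. Since a gate leaves out cells rich in markers of another type, these shares are low by construction. The value of 77.6 in Schwann cells came from 14 UMIs in 5 of 26 cells. In the epidermis the contrast was far sharper, with basal keratinocytes at 1.60 CPM, 213-fold (176 to 259) below Langerhans cells.

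*Csf2* (chr11:54247271-54249667, minus strand) was carried by few dermal cells, with the largest share of its UMIs in type 17 T cells. It was at 135 CPM (115 to 157) in dermal type 17 T cells, which held 168 of its 400 dermal UMIs (42.0%) in 29 of 88 cells. The 5 richest cells carried 59.5% of those 168 UMIs. Without the richest cell the level was 114. Basophils followed at 57.1 CPM (43.7 to 73.3), but from 9 of 227 cells, of which 5 held 91.8% of the UMIs. Unassigned cells held 69 of the dermal UMIs (17.25%), with 40 in the richest cell, more than the 61 (15.25%) of basophils. Other T cells were at 40.7 (22.8 to 67.2, 15 UMIs) and natural killer cells at 21.1 (5.76 to 54.1, 4 UMIs). Type 17 T cells were above basophils by 2.36-fold (1.75 to 3.22), above other T cells by 3.31-fold (1.95 to 6.05) and above regulatory T cells by a ratio of 22.7 (6.18 to 189) that rests on 2 UMIs. The αβT cells had 0 UMIs, which makes the type 17 cells at least 11.1-fold higher, and 429 neutrophils also had 0. Monocytes and macrophages were at 3.44 and 3.09 CPM, with 85.3% and 97.1% of their UMIs in 5 cells each.

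Across all 236 dermal T cells, the 70 with a UMI of *Il17a*, itself a marker of the type 17 gate, stood at 114 CPM of *Csf2* (93.6 to 136) and the 166 without at 57.5 (44.9 to 72.5), with medians of 12049.5 and 6079.5 UMIs per cell. The epidermis had 14 *Csf2* UMIs in all. Of these 6 were in 420 epidermal γδT cells, at 5.98 CPM (2.19 to 13.0), 22.6-fold (10.2 to 62.4) below the dermal type 17 cells, and 3 in 21 epidermal type 17 cells.

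**Figure D3:**
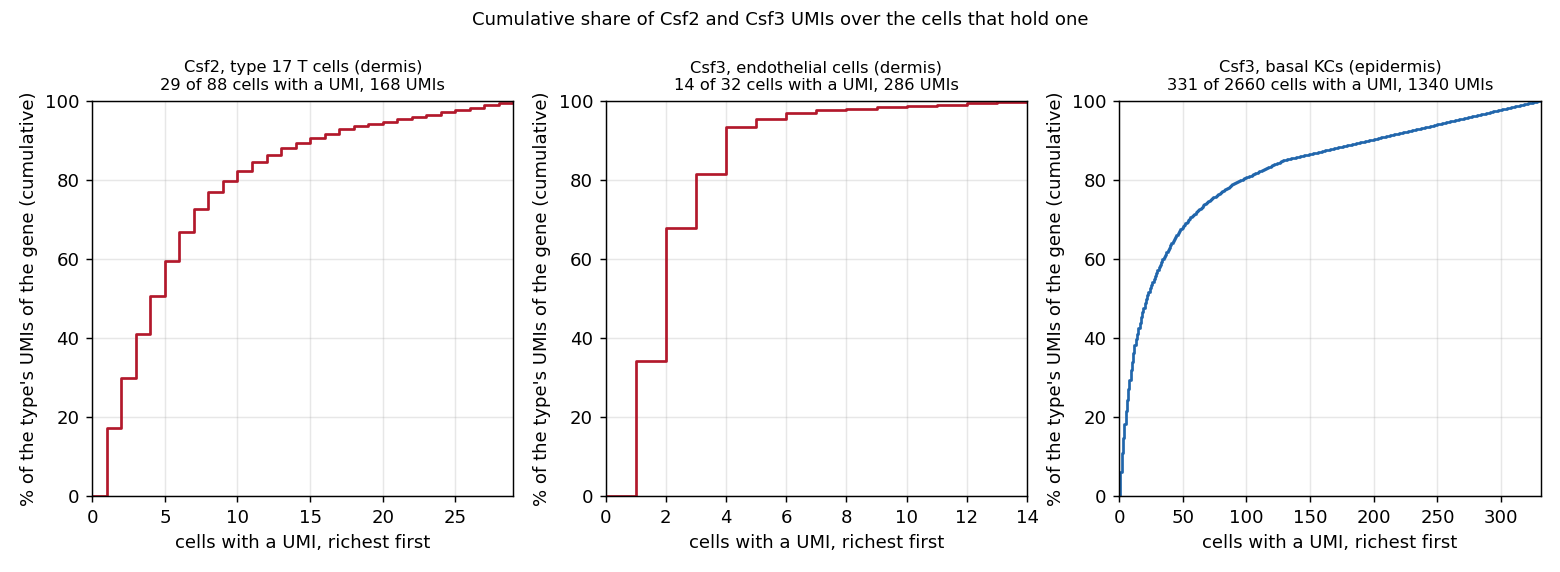
Cumulative share of a gene's UMIs in a type (percent, vertical) against the cells with a UMI, richest first (horizontal), for *Csf2* in dermal type 17 T cells, *Csf3* in dermal endothelial cells and *Csf3* in epidermal basal keratinocytes. The 5 richest cells hold 59.5%, 95.5% and 21.6% of the UMIs.

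The chains of the GM-CSF receptor were distributed unlike each other. *Csf2ra* (chr19:61223957-61228429, minus strand), the ligand-specific alpha chain, was at 156 CPM (149 to 164) in monocytes, 139 (121 to 159) in *Cd209a* dendritic cells, 101 (87.8 to 116) in neutrophils, 85.1 (79.7 to 90.7) in macrophages and 72.3 (53.3 to 95.9) in *Ccr7* dendritic cells. Monocytes and *Cd209a* dendritic cells were not separated (ratio 1.12, 0.971 to 1.30), while monocytes were above macrophages by 1.84-fold (1.69 to 1.99). Langerhans cells were at 125 (106 to 145), below the dermal monocytes by a ratio of 0.798 (0.676 to 0.936). Type 17 T cells, the main *Csf2* cells, were at 8.83 (4.41 to 15.8).

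*Csf2rb* (chr15:78325752-78353847, plus strand), the shared beta chain, was instead highest in basophils at 444 CPM (405 to 486), with a UMI in 84.6% of cells, and in mast cells at 349 (260 to 459), a ratio of 1.27 (0.953 to 1.74). Both types were low in *Csf2ra*, at 26.2 (17.4 to 37.9) and 20.5 (4.23 to 59.97). Next came *Ccr7* dendritic cells at 182 (151 to 218), endothelial cells at 136 (108 to 168), *Cd209a* dendritic cells at 133 (115 to 153), neutrophils at 119 (104 to 135), monocytes at 94.2 (88.2 to 100.3) and macrophages at 52.0 (47.8 to 56.4). Monocytes exceeded macrophages by 1.81-fold (1.63 to 2.01), close to their ratio for the alpha chain. The endothelial cells were 30.6% of the basophil level for *Csf2rb* and 0.248% for the basophil markers. That marker share is low by construction of the gate, and the part of basophil RNA in the endothelial value was not tested. Langerhans cells stood at 123 (105 to 143), not separated from *Cd209a* dendritic cells (ratio 0.924, 0.747 to 1.14). The epidermal basophils, at 483 (321 to 697) from 28 UMIs, were not separated from the dermal ones (ratio 0.921, 0.629 to 1.40). The background was 5.68% of type 17 T cells with a UMI and 0 of 420 epidermal γδT cells, which allows up to 2.99 CPM.

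*Csf2rb* lies 20030 bases from *Csf2rb2*, which encodes the mouse IL-3-specific beta chain. Of the 90-base stretches of the *Csf2rb* transcript 8.19% also occur in *Csf2rb2*, but 0 of the 511 in its last 600 bases, the part a 3′ library reads. Only reads from the shared stretches, outside those last 600 bases, could leave either count short.

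**Figure D4:**
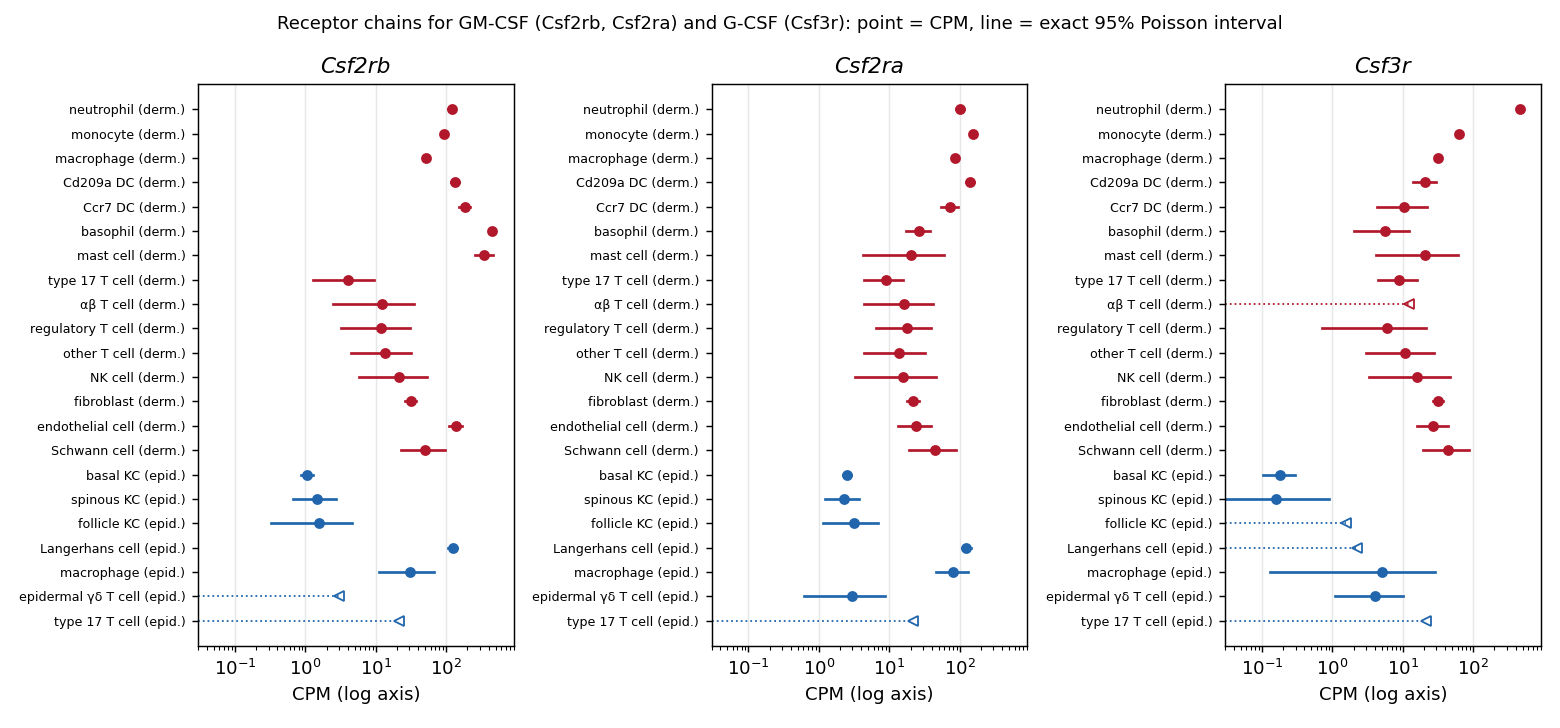
CPM (log axis) of *Csf2rb*, *Csf2ra* and *Csf3r* in dermal (red) and epidermal (blue) types, with points at the value, lines for the exact 95% Poisson interval and open triangles for the limit that 0 UMIs allow. *Csf2rb* is led by basophils (444) and mast cells (349), *Csf2ra* by monocytes (156) and *Cd209a* dendritic cells (139), and *Csf3r* by neutrophils (466) ahead of monocytes (62.3).

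*Csf3* (chr11:98701263-98703629, plus strand) was highest in endothelial cells, which line the vessels, in the dermis. The 32 endothelial cells stood at 457 CPM (406 to 513) and held 286 of its 592 dermal UMIs (48.3%). They were 21.01-fold (15.3 to 29.4) above neutrophils (21.7, 15.9 to 29.1) and 34.0-fold (25.6 to 45.8) above fibroblasts (13.4, 10.2 to 17.3), with monocytes at 11.1 (9.15 to 13.4). The level came from few cells: 14 had a UMI, the richest held 98, and 5 held 95.5%. Without the richest cell the level was 317.

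In the epidermis *Csf3* was higher in basal than in spinous keratinocytes, the opposite order to *Il34*. Basal keratinocytes were at 15.1 CPM (14.3 to 15.9) with 1340 UMIs, 96.7% of the library's total, and stood 5.89-fold (3.61 to 10.3) above spinous keratinocytes at 2.56 (1.47 to 4.16). A UMI was found in 331 of 2660 basal cells (12.4%), with 81 in the richest. Thinned to 1000 UMIs the share was 0.983%, against 0.372% of spinous keratinocytes, 0.477% of epidermal γδT cells and 0.0880% of Langerhans cells. The level depended on how rich the cells were. The 832 basal keratinocytes with over 5000 genes were at 24.4 CPM (22.9 to 25.9) and the 1828 others at 6.73 (6.01 to 7.52), with medians of 48191 and 27462 UMIs. *Il34* ran the other way in the same cells, at 3.99 (3.41 to 4.64) and 6.17 (5.48 to 6.93), as did *Csf1*, at 1.24 (0.923 to 1.62) and 2.59 (2.15 to 3.10). Cells with over 5000 genes can be doublets, and the study's own limits leave them out. Removing the cells scored highest as doublets left 2541 of the 2660 basal keratinocytes, with *Csf3* at 15.5. It took out too few cells to show whether the 832 are doublets. The endothelial level exceeded the basal keratinocyte one by 30.3-fold (26.5 to 34.4), across libraries.

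*Csf3r* (chr4:126024550-126044440, plus strand) had the largest gap between its highest and next dermal type among the 5 receptor genes. Neutrophils were at 466 CPM (437 to 496), with a UMI in 80.4% of 429 cells, 7.48-fold (6.75 to 8.28) above monocytes at 62.3 (57.5 to 67.4). Schwann cells were at 44.3, from 8 UMIs in 26 cells, and fibroblasts at 31.9 (26.8 to 37.6) and macrophages at 31.7 (28.5 to 35.2) followed with near-equal values. Monocytes were above macrophages by 1.97-fold (1.72 to 2.25). In fibroblasts *Csf3r* was at 6.84% of the neutrophil level and the 6 neutrophil markers at 4.48%, in monocytes at 13.4% against 3.39%, in macrophages at 6.81% against 1.32%, and in type 17 T cells at 1.90% against 0.642%. These marker shares are low by construction of the gate, and the part of neutrophil RNA in the lower *Csf3r* values was not tested. The share of cells with a UMI was 12.5% in type 17 T cells and 2.20% in basophils. The 18 epidermal neutrophils stood at 211 CPM (101 to 388) from 10 UMIs, 2.21-fold (1.20 to 4.62) below the dermal ones, and Langerhans cells had 0 UMIs, which allows up to 2.24 CPM.

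Promoters are shown for *Csf3r* and *Csf2ra*, the receptor genes highest in neutrophils and monocytes, because their windows carry the core binding letters of PU.1, the myeloid factor encoded by *Spi1*. Promoters of 6 of the 10 genes were read from the RefSeq table (GRCm38.p6), each from 250 bases before to 50 after the RefSeq start. Windows of *Csf1r*, *Csf2rb*, *Csf3* and *Il34* were not read, so whether they hold these letters was not tested. The motif GAGGAAG was searched on both strands and is in capitals. It occurred 1 time in the *Csf3r* window, from 86 bases before the start, and 2 times in the *Csf2ra* window, from 14 and 8 bases before it, where the copies overlap by 1 base. Of all 32851 promoters of this length 13.6% hold it, and the windows of *Csf1*, *Csf2*, *Flt3l* and *Flt3* did not. Core letters of NF-kB (GGANNTTCC, in 4.26% of all promoters) and C/EBP (TTGCNNAA, in 10.8%) were searched in the same way and are not capitalised. The first occurred 1 time each in the windows of *Csf3r*, from 129 bases before the start, and *Csf1*, from 154 bases before it, and the second 1 time in that of *Csf2*, from 145 bases before it.
Csf3r, chr4:126024409-126024708, plus strand: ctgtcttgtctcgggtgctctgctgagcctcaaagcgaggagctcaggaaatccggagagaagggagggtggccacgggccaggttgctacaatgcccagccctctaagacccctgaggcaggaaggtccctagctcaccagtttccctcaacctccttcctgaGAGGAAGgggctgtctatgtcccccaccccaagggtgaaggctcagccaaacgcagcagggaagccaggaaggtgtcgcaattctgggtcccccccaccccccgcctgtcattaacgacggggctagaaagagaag
Csf2ra, chr19:61228369-61228668, minus strand: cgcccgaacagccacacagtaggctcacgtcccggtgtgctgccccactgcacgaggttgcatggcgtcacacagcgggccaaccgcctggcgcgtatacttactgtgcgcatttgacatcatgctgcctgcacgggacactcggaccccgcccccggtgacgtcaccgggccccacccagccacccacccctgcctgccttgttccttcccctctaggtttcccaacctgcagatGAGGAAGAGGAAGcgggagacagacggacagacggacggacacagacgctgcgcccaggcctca

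*Spi1* itself was at 808 CPM (769 to 847) in neutrophils, 657 (641 to 673) in monocytes, 563 (526 to 603) in *Cd209a* dendritic cells, 511 (498 to 525) in macrophages and 496 (459 to 535) in Langerhans cells. Each of these types also held *Csf2ra*. Basophils, low in *Csf2ra* (26.2), had *Spi1* at 325 (291 to 361), near the 328 (286 to 375) of *Ccr7* dendritic cells. *Csf3r* did not follow *Spi1* in every type, with 0 UMIs in Langerhans cells and 5.61 CPM in basophils. Across the 15 dermal types *Spi1* was among the 3 genes most like *Csf2ra* (Pearson r 0.918 of log2(CPM + 1)). A match of letters is a description, not evidence of binding.

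*Flt3l* (chr7:45129788-45136432, minus strand) had its highest levels in lymphocytes in both layers, with basophils close behind in the dermis. There the order was αβT cells at 92.8 CPM (58.8 to 139), natural killer cells at 68.7 (36.6 to 117), regulatory T cells at 50.6 (29.5 to 81.0), other T cells at 46.2 (26.9 to 73.9), type 17 T cells at 36.1 (26.4 to 48.4) and basophils at 33.7 (23.6 to 46.6), and no neighbours in it were separated. The αβT cells were above type 17 T cells by 2.57-fold (1.48 to 4.34) and above macrophages (10.5, 8.71 to 12.6) by 8.81-fold (5.37 to 13.9). In the epidermis the γδT cells stood at 73.8 (57.9 to 92.6), not separated from dermal αβT cells (ratio 0.795, 0.492 to 1.33) and 52.8-fold (39.0 to 71.0) above basal keratinocytes. Their share of cells with a UMI, 16.2%, was at a median depth of 2348.5 UMIs, and thinned to 1000 UMIs it was 7.13%, against 0.155% of basal keratinocytes. By share of UMIs the larger types held more. Monocytes and macrophages held 21.1% and 19.7% of the dermal *Flt3l* UMIs, and αβT cells 3.90%. Basal keratinocytes held 49.4% of the epidermal ones, and γδT cells 29.5%. By level the order of the dermal T cell types for *Flt3l* was the reverse of that for *Csf2*. *Flt3l* overlaps *Gm45713* on its own strand, which had 1 epidermal UMI, and reads that fit both would be missing from *Flt3l*.

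Fibroblasts were split by *Tnc*, the extracellular matrix gene at the centre of the study. The 108 without a *Tnc* UMI were at 34.6 CPM of *Flt3l* (23.3 to 49.4) and the 251 with one at 7.37 (4.82 to 10.8). The cells without *Tnc* were shallower (medians 6838.5 and 12173 UMIs), and shares of cells thinned to 1000 UMIs were 3.31% and 0.937%. For *Csf3* the values were 5.76 (1.87 to 13.4, 5 UMIs) without and 15.3 (11.5 to 19.98) with *Tnc*, and for *Csf1* 63.4 (47.7 to 82.5) and 59.3 (51.5 to 67.9). Those intervals overlapped.

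*Flt3* (chr5:147330741-147400489, minus strand), the receptor, was held by dendritic cells. The 18 type 1 conventional dendritic cells, under the 20-cell minimum, stood at 124 CPM (91.2 to 165), with a UMI in 16 of them. *Ccr7* dendritic cells were at 107 (83.5 to 135) and *Cd209a* dendritic cells at 54.4 (43.2 to 67.5), a ratio of 1.97 (1.41 to 2.74). Monocytes were at 10.4 (8.51 to 12.6), 5.22-fold (3.85 to 7.04) below *Cd209a* dendritic cells, and macrophages at 1.82 (1.11 to 2.81), 5.73-fold (3.53 to 9.78) below monocytes. Langerhans cells had 8.21 (4.10 to 14.7) from 11 UMIs, 6.62-fold (3.51 to 13.8) below dermal *Cd209a* dendritic cells. Of the dermal *Flt3* UMIs 24.9% lay in unassigned cells.

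**Figure D5:**
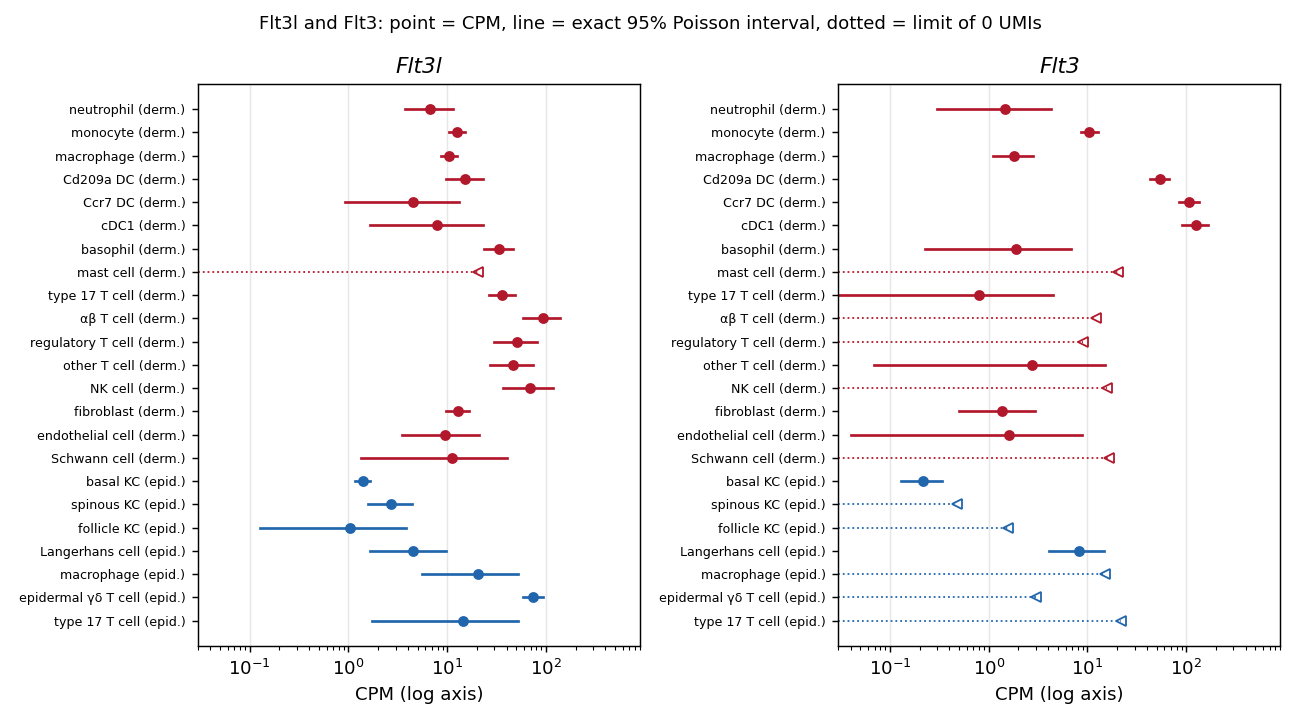
CPM (log axis) of *Flt3l* and *Flt3* in dermal (red) and epidermal (blue) types, here with the 18 type 1 conventional dendritic cells (cDC1), with points at the value, lines for the exact 95% Poisson interval and open triangles for the limit that 0 UMIs allow. *Flt3l* is highest in αβT cells (92.8) and epidermal γδT cells (73.8), and *Flt3* in the dendritic types (54.4 to 124).

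Read by receiving cell, some myeloid types differed in their combination of receptors. Monocytes and macrophages, the largest of them, were close for *Csf1r* (macrophages over monocytes 1.11). Monocytes were 1.84-fold, 1.81-fold and 1.97-fold above macrophages for *Csf2ra*, *Csf2rb* and *Csf3r*, and 5.73-fold above for *Flt3*. Langerhans cells combined *Csf1r* (341), *Csf2ra* (125) and *Csf2rb* (123) with little *Flt3* and no detected *Csf3r*. Neutrophils combined *Csf3r* (466) with *Csf2rb* (119) and *Csf2ra* (101). *Cd209a* dendritic cells held *Csf2ra*, *Csf2rb* and *Csf1r* at near-equal levels (131 to 139) with *Flt3* at 54.4, while *Ccr7* dendritic cells kept *Csf2rb* (182) and *Flt3* (107) above *Csf1r* (52.7). Within a type, a *Csf2ra* UMI was found more often in cells with a *Csf1r* UMI than in those without, in 53.8% against 32.6% of macrophages, 68.5% against 54.0% of monocytes and 66.7% against 33.3% of Langerhans cells. The cells with a *Csf1r* UMI were also deeper, with medians of 10182 against 5524.5, 9245.5 against 6545 and 8468.5 against 5710 UMIs, and the part of depth in those shares was not tested. *Csf2rb* was found in 63.0% of *Cd209a* dendritic cells with a *Csf2ra* UMI and 58.6% of those without.

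The relatives of the beta common chain were read from a list of 26 pathway genes. *Csf2rb2* was at 246 CPM (172 to 341) in mast cells and 209 (182 to 238) in basophils, and *Il3ra*, the IL-3 alpha chain, at 95.8 (52.4 to 161) and 102 (83.7 to 123). The IL-3 receptor chains were highest in the same types as *Csf2rb*. Few UMIs of the ligands were found, with 1 dermal UMI of *Il3* and 11 of *Il5*, and the IL-5 alpha chain *Il5ra* had 3. Among other class III receptors, *Kit*, itself a marker of the gate, was at 315 in mast cells, and *Pdgfra* at 181 (169 to 194) in fibroblasts. Of the further IL-34 binders, *Sdc1* was at 484 (454 to 517) in upper follicle, 338 (324 to 353) in spinous and 327 (323 to 331) in basal keratinocytes, and *Ptprz1* at 19.0 (18.1 to 19.9) in basal keratinocytes. Of signal molecules *Stat3* and the adaptor *Grb2* were highest and near-equal. *Stat3* was at 173 (131 to 223) in regulatory T cells and 157 (128 to 190) in *Ccr7* dendritic cells, and *Grb2* at 180.2 (117 to 266, 25 UMIs) in the 21 epidermal type 17 T cells, 171 (111 to 252) in mast cells and 169.6 (128 to 219.7) in regulatory T cells. Of target genes *Pim1* was highest, at 1059 (998 to 1123) in basophils and 779 (742 to 818) in neutrophils. *Cebpb*, a lineage factor, was at 3759 (3676 to 3843) in neutrophils and 3007 (2904 to 3113) in basophils.

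Genes whose levels most resembled a member's across the 15 dermal types were *Cd33*, *Tlr2* and *Pfkfb4* for *Csf3r* (Pearson r 0.949 to 0.914 of log2(CPM + 1)), *Unc93b1*, *Gm21188* and *Plbd1* for *Csf1r* (0.934 to 0.923), *Clec4n* and *Pirb* besides *Spi1* for *Csf2ra*, *Stx3*, *Csf2rb2* and *Asph* for *Csf2rb* (0.928 to 0.879) and *Siglecg*, *Kynu* and *Kctd14* for *Flt3* (0.950 to 0.938). For the ligands they were *Npepps*, *Chic2* and *Hdc*, the histamine-forming enzyme, for *Csf1* (0.897 to 0.879), *Cldn5*, *Rnf19b* and *Tmem252* for *Csf3* (0.903 to 0.881), *Blm*, *Gm45716* and *Hist1h2bj* for *Csf2* (0.848 to 0.772) and *D16Ertd472e*, *Rinl* and *Ldb1* for *Flt3l* (0.962 to 0.923). Across the 7 epidermal types *Gjb5*, a connexin, *Ccdc120* and *Rap1gap* were most like *Il34* (0.993 to 0.986), and *Col12a1*, *Hpdl* and *Bnc1* most like *Csf3* (0.995 to 0.986). The types of a library share its depth and free RNA, and 7 points leave high correlations easy to reach.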

How the data were processed

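Per the submitters' processing notes and the file headers, the authors made the 10x 3′ libraries' values with Cell Ranger 3.0.2 against mm10, and the deposited values are raw UMI counts per gene and barcode, before any filter or normalization. The annotation is not given in the sources used here. The methods of the study describe sorting against doublets, debris and dead cells, while the labels name only the removal of dead cells.

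From these counts, cells under 200 genes or over 10% mitochondrial UMIs were left out (5376 to 4747 dermal, 5258 to 4173 epidermal barcodes). Library totals were 41258087 and 108768396 UMIs. Each cell took the type with the highest mean scaled marker level (at least 0.25, ahead of the next by 0.05, with at least 3 markers found). These thresholds were set after the data were seen. CPM were UMIs of a gene over all UMIs of the type. Intervals were exact, Poisson for CPM, Clopper-Pearson for shares and conditional for ratios, all at 95%. Folds against 0 UMIs, and limits given for 0 UMIs, used 3 counts in the type. Shares thinned to 1000 UMIs were the expected share per cell, over the cells with at least 1000 UMIs. Doublets were kept in the main values and removed with Scrublet (scanpy 1.11.5, 0.8% per 1000 cells) as an alternative. The script was tested on simulated data. Scripts ran in Python 3.11.15 with scipy 1.17.1, pandas 2.3.3 and numpy 2.4.6. Positions came from GENCODE M21 by gene ID, and promoter sequences from RefSeq (GRCm38.p6).

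Named genes were the 10 members, the beta common chain relatives, the highest genes of each other pathway group, and the 3 genes (at least 50 UMIs, not gate markers) most correlated with a member. *Il17a* and *Tnc*, used to split cells, were added. The members and lists were chosen with earlier results of these data known. Alternatives were other limits, doublet removal, a stricter gate, clusters, leaving out the richest cell, means over cells, other minimums and thinning.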

Additional observations from a re-analysis of the deposited data

How the results depend on the processing

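No paired analysis was possible because each layer has 1 library. Of the 13 levels of a member in its highest type, 77 values were recomputed under 6 alternatives, and 61 stayed within their counting interval. The study's limits gave 552 CPM for *Csf3* in endothelial cells and 6.70 in basal keratinocytes, and there *Csf3* no longer had a leading type, so the epidermal count of members with one was 2 of 7, against 9.52% of all genes. The stricter gate gave 164 CPM for *Csf2ra* in monocytes, 525 for *Csf3* in endothelial cells and 16.0 in basal keratinocytes. Under it *Csf3* also had no leading type in the epidermis (2.89-fold). *Csf1r* (268-fold) and *Csf2ra* (36.6-fold) then had one in Langerhans cells, 4 of 7 members against 14.5% of all genes. In the main values those folds were 2.24 and 1.54, against epidermal macrophages at 152 and 81.1 CPM. The larger folds are therefore against another, much lower level, and not against macrophages at their main level. Clusters gave 205 CPM for *Csf1r* in macrophages, 289 in Langerhans cells, 166 for *Csf2ra* in monocytes and 373 for *Csf3r* in neutrophils, and no cluster took the αβT name. Without the richest cell, *Csf2* was at 114 CPM in type 17 T cells and *Csf3* at 317 in endothelial cells and 14.2 in basal keratinocytes. Means over cells gave 229 CPM for *Csf1r* in macrophages, 517 for *Csf3r* in neutrophils, and 372 and 11.3 for *Csf3* in endothelial cells and basal keratinocytes. Doublet removal moved none of the 13 levels beyond its interval. The number of members with a leading type rose from 2 to 4 in the dermis at 2-fold and from 3 to 5 in the epidermis with types of at least 50 cells (14.9% of all genes there), the next highest type, macrophages, being left out. In the dermis such types again gave 2 of 9, against 12% of all genes, with *Flt3* in place of *Csf3*. With genes of at least 20 UMIs *Flt3* was added in the epidermis, 4 of 9 against 13.7%. The highest type by CPM was also the highest by share of cells in 12 of 13 cases, and in 13 of 13 after thinning to 1000 or 2000 UMIs. Thinning leaves out shallower cells, at 1000 UMIs 71 of the 112 dermal mast cells, the next type by CPM for *Csf1* and *Csf2rb*. Types of under 50 cells, and *Csf2* and *Csf3*, which lie in few cells, have limited precision. The spread between animals cannot be given with 1 library per layer.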

Other observations

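Fibroblasts were also split by *Coch*, which was singled out with earlier results known. The 200 fibroblasts with a *Coch* UMI were at 50.4 CPM of *Csf1* (42.2 to 59.8) and the 159 without at 74.3 (62.2 to 88.1), at medians of 11030 and 10036 UMIs. *Csf3* was at 13.4 (9.31 to 18.6) and 13.5 (8.66 to 20.1) in the same cells. *Il34* was at 9.17 (5.87 to 13.6) and 5.63 (2.70 to 10.4), and those intervals overlapped.

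*Kitl*, the ligand of KIT and a relative of *Csf1* in fold, was at 38.3 CPM (24.6 to 57.1) in endothelial cells and 33.4 (28.3 to 39.3) in fibroblasts, and in the epidermis at 3.13 (2.77 to 3.52) in basal keratinocytes. *Kit* had 28 UMIs in epidermal γδT cells, at 27.9 CPM (18.5 to 40.3). *Irf8*, a lineage factor of type 1 and plasmacytoid dendritic cells, was at 2007 CPM (1867 to 2155) in the 18 cells of that type, 1972 (1649 to 2340) in 6 plasmacytoid dendritic cells, 676 (564 to 804) in natural killer cells and 336 (293 to 383) in *Ccr7* dendritic cells. *Cebpa* was at 166 (142 to 192) in basophils against 28.4 (25.2 to 32.0) in monocytes. *Cish*, a feedback gene of STAT5 signalling, was at 137 (100.2 to 183) in regulatory T cells and 91.6 (75.5 to 110) in type 17 T cells.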
